A study of Homo sapiens with 24 samples.

Results

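The genes described here are 60 genes spread along both arms of chromosome 20, chosen because the chromosome had been seen to stand above the rest of the genome in every doxorubicin-resistant derivative of the Ramos line. The members were chosen by the log2 intensity differences between each resistant line and Ramos, so those differences are given below as a description. Calls against Ramos by adjusted p are counted only to sort the members by how far they stood beyond the spread between arrays, and they are no test of the members. Probes for 55 of the 60 members were measured, among 284 measured genes of chromosome 20 and 9533 measured genes in all. CRNKL1, a splicing factor, NCOA3, a nuclear receptor coactivator, and PSMA7, a subunit of the 20S proteasome core, had 0 probes in the annotation used. The single probe of PSMF1, a proteasome inhibitor, was detected on 0 arrays of any line, and neither of the 2 probes of VAPB, an endoplasmic reticulum tethering protein, was detected on more than 2 arrays of a line.

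The study compared 5 resistant lines with Ramos, an established human Burkitt lymphoma line, which is a tumour of germinal centre B cells. The lines are named for the doxorubicin in their medium, 100 nM for Dox100, 250 nM for Dox250, 500 nM for Dox500, 750 nM for Dox750 and 1000 nM for Dox1000. Doxorubicin is a drug that traps topoisomerase II on DNA. Dox100 was derived from Ramos and every later line from the line before it, so the 5 lines are not independent of each other. Each line was grown as 1 culture that was divided into 4, with 1 array for each, and the p-values therefore speak only of the variation among such sister cultures, which may be technical. All lines grew in RPMI with fetal bovine serum. RNA was taken from resistant cells in the presence of drug and from Ramos without drug, so line and drug exposure cannot be told apart. The labels do not say whether a line is a single clone.

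Chromosome 20 is among the smaller human chromosomes and carries genes for many housekeeping functions, including pre-mRNA splicing, protein folding and destruction, the secretory pathway, and chromatin regulation. Most of the members have no pathway in common, and many encode single subunits of complexes whose other subunits lie on other chromosomes. Gains of chromosome 20 material are known from several human tumour types. The arrays measured RNA and not DNA copies.

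Values are log2 probe intensities after background correction and quantile normalization, and differences between lines are fitted log2 differences ± SE from limma with 4 arrays per line. The brightest kept probe stood for a gene, and a gene is called higher or lower where the Benjamini-Hochberg adjusted p is under 0.05. Levels are not compared between genes, because each probe has its own brightness. Between 14158 and 15564 probes were detected per array, and the median signal ran from 121.1 to 163.4. Among B cell markers, CD79A, CD79B, MS4A1, CD22, MME, BCL6 and MYC were detected on all 4 arrays of every line, and PAX5 was detected on 0 arrays. Among 12 markers of other cell types, CD3D, CSF1R, EPCAM and COL1A1 were detected on 0 arrays. CD3E was detected on 4 arrays of Dox100 and at most 2 of any other line, NKG7 and DCN on at least 3 arrays of each of Dox500, Dox750 and Dox1000, and CST3, itself a gene of chromosome 20, on 4 arrays of every resistant line and 0 of Ramos. The other markers, CD2, LYZ, CD14 and KRT18, were detected on at most 2 arrays of a line. The part of these markers in the results was not tested.

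The members stood above Ramos by a similar amount in each resistant line. The median difference of the 55 members from Ramos on the log2 scale was 0.47 in Dox100, 0.50 in Dox250, 0.51 in Dox500, 0.49 in Dox750 and 0.43 in Dox1000, or 1.38, 1.41, 1.42, 1.41 and 1.34-fold. Over all 9533 genes the same median lay between -0.02 and 0.01. In bulk RNA, more cells that express a gene and more RNA per cell cannot be told apart.

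Array by array, the median of the members relative to the Ramos mean was -0.02, 0.01, 0.01 and -0.02 in Ramos, 0.43, 0.49, 0.41 and 0.45 in Dox100, and 0.48, 0.53, 0.52 and 0.48 in Dox250. It was 0.55, 0.51, 0.53 and 0.50 in Dox500, and 0.44, 0.50, 0.47 and 0.42 in Dox750. In Dox1000 it was 0.41, 0.43, 0.45 and 0.43. The lowest array of any resistant line thus lay far above the highest array of Ramos, while the arrays of Dox100, Dox750 and Dox1000 overlapped each other.

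**Figure D1:**
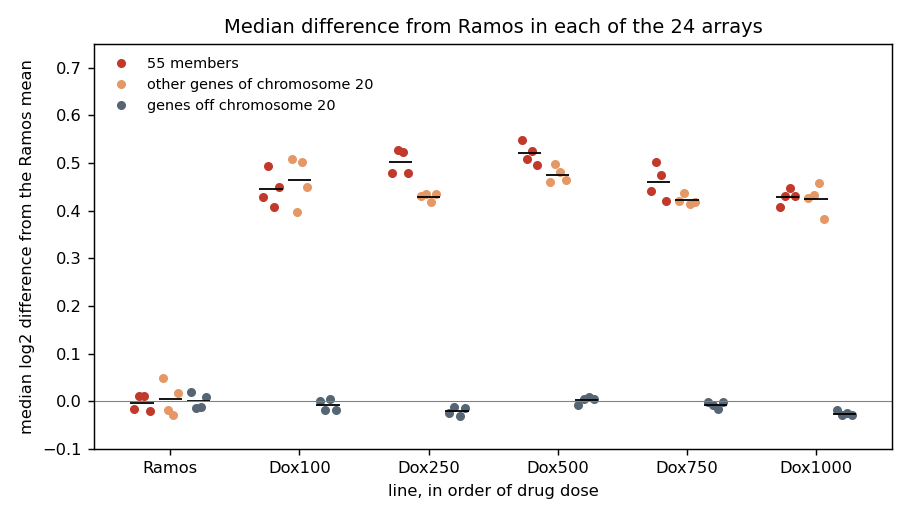
Median log2 difference from the Ramos mean on each array (vertical axis) for the 55 members, the other genes of chromosome 20 and all genes off chromosome 20, by line from Ramos to Dox1000 (horizontal axis). Points are arrays, 4 per line, short bars their mean, and the members sit between 0.41 and 0.55 on the arrays of the resistant lines and within 0.02 of 0 on those of Ramos.

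Counted by gene, 44, 45, 48, 45 and 39 of the 55 members were called higher than Ramos in Dox100, Dox250, Dox500, Dox750 and Dox1000. Of all genes 24.1%, 23.9%, 25.2%, 26.8% and 27.6% were called higher in the same comparisons, and nothing is read from the members' counts because these comparisons chose the members. The 5 comparisons share the Ramos arrays. In all 5 lines 37 members were called higher (67.3%), beside 13.8% of all genes, and under median scaling in place of quantile normalization 25 were. For 32 members every array of every resistant line lay above every Ramos array, which was so for 11.2% of all genes. The 37 and the 32 both include PFDN4. It was detected on 0 Ramos arrays and passed the detection filter only through the resistant lines, so its Ramos level is only a bound. The tally over lines was uneven. Of the members, 7 were called higher in 4 lines, 1 in 3 lines, 1 in 2 lines, 3 in 1 line and 6 in 0 lines.

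**Figure D2:**
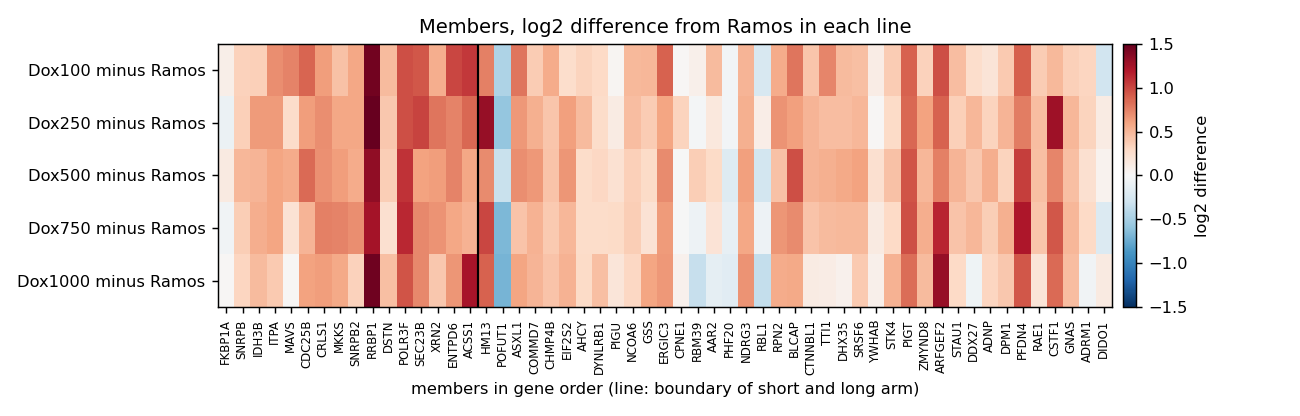
Fitted log2 difference from Ramos for each of the 55 measured members (columns) in the 5 resistant lines (rows, Dox100 at the top to Dox1000). Colour runs from blue for lower to red for higher than Ramos. Columns follow the member list, which is close to the order along chromosome 20. A line parts the short arm on the left from the long arm on the right. For 45 members all 5 cells are above 0, and POFUT1 is the column called lower than Ramos in all 5.

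RRBP1 stood farthest above Ramos. It encodes the ribosome-binding protein of the endoplasmic reticulum, and it lies on the short arm. Its log2 level was 9.70, 9.46, 9.40 and 9.74 in Ramos, 11.18, 11.05, 11.12 and 10.76 in Dox100, 11.05, 11.12, 11.001 and 11.25 in Dox250, 10.82, 10.91, 10.99 and 10.89 in Dox500, 10.74, 10.92, 10.74 and 10.91 in Dox750, and 11.06, 11.20, 11.11 and 10.79 in Dox1000. All 20 arrays of the resistant lines lay above all 4 of Ramos, and Dox250 lay above Dox500 and Dox750 without overlap, while the other pairs of resistant lines overlapped. The difference was 1.45, 1.53, 1.33, 1.25 and 1.46 ± 0.10 from Dox100 to Dox1000. At the other end, POFUT1, which adds O-fucose to Notch receptors and other secreted proteins, was read as lower than Ramos in every line. Its log2 level ran from 12.14 to 12.86 over the 20 resistant arrays, against 12.93, 13.06, 13.15 and 13.07 in Ramos, with no overlap. Its differences were -0.47, -0.57, -0.33, -0.67 and -0.70 ± 0.11. A dimmer kept probe of POFUT1 went the other way, with differences of 0.78, 0.74, 1.03, 0.89 and 0.71, so the direction of this gene depends on the probe.

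The promoters of these 2 genes are shown because they are the ends of the members' range among genes detected on all 24 arrays. Both windows come from RefSeq on GRCh38.p14 and cover 250 bases before and 50 bases after the annotated start, written along the gene's own strand. RRBP1 lies on the minus strand (chr20:17682193-17682492) and POFUT1 on the plus strand (chr20:32207630-32207929). Capitals mark the motifs searched, on either strand.
RRBP1: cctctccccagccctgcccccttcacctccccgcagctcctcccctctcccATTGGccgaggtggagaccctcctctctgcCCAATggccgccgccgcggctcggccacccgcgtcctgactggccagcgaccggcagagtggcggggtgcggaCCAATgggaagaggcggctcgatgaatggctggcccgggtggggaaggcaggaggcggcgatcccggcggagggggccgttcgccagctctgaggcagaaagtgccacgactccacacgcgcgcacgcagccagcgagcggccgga
POFUT1: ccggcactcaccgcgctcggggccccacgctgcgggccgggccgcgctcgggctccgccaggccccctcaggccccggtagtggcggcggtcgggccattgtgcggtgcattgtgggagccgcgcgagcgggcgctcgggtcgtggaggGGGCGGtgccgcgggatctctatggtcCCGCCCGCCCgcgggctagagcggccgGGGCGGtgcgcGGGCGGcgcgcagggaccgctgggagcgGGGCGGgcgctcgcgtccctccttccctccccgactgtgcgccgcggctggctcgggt
The RRBP1 window held 3 copies of CCAAT, which includes ATTGG on the other strand, with 30 CpG and a GC content of 72.7%. The POFUT1 window held 6 copies of GGGCGG, the SP1 motif, counting both strands and the overlapping pair, with 49 CpG and a GC content of 80.7%. Over the 53 members with a promoter in the table, GGGCGG occurred in 50.9%, beside 70.0% of the promoters of 7796 measured genes and 44.6% of all 27305 promoters. CCGGAAG, an ETS motif, occurred in 32.1% of the members, beside 21.1% of measured genes and 10.7% of all promoters. CCAAT occurred in 22.6%, beside 38.4% and 35.7%, and TATAAA in 5.66%, beside 5.53% and 12%. None of these motifs contains another. These shares are descriptions of letters in a window.

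After RRBP1 the members with the highest mean over the 5 lines were POLR3F, ARFGEF2, PFDN4, HM13 and PIGT. POLR3F, a subunit of RNA polymerase III, had log2 levels from 8.50 to 8.997 over the 20 resistant arrays, against 8.05, 7.53, 7.86 and 7.59 in Ramos, with no overlap, and differed from Ramos by 0.96, 0.96, 1.09, 1.13 and 0.94 ± 0.11. PIGT, a subunit of the GPI transamidase, had levels from 10.02 to 10.36 in the resistant lines, against 9.34, 9.30, 9.04 and 9.20 in Ramos. Its difference was the steadiest of the 6, at 0.89, 0.86, 0.94, 0.96 and 0.83 ± 0.07. ARFGEF2, an exchange factor for ARF proteins at the trans-Golgi, differed by 0.97, 0.89, 0.76, 1.14 and 1.30 ± 0.10. PFDN4, a prefoldin subunit, was detected on 0 of 4 Ramos arrays, so Ramos gives only a bound. Set against a floor for each Ramos array (its lowest detected signal, or the probe's signal where that was greater), it was at least 1.35, 1.24, 1.49, 1.68 and 1.39-fold higher in the 5 lines from Dox100 to Dox1000. HM13, the signal peptide peptidase, differed by 0.75, 1.31, 0.71, 1.0003 and 0.89 ± 0.18 on the probe read. Its other kept probes gave -0.42, -0.31, -0.56, -0.57 and -0.63 on one and 0.05, 0.12, -0.01, -0.33 and -0.37 on another, so its direction also depends on the probe.

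The lowest members besides POFUT1 were RBL1, PHF20, DIDO1, RBM39 and FKBP1A. RBL1, the retinoblastoma-like protein p107, had log2 levels from 6.71 to 7.73 in the resistant lines, against 7.27, 7.47, 7.20 and 7.26 in Ramos, and differed by -0.25, 0.10, -0.27, -0.07 and -0.35 ± 0.13 from Dox100 to Dox1000. PHF20, a chromatin reader of the NSL acetyltransferase complex, had levels from 7.66 to 8.16 in the resistant lines, against 7.88, 7.88, 8.21 and 8.05 in Ramos, and differed by -0.05, -0.05, -0.19, -0.12 and -0.17 ± 0.10. RBL1 overlapped with Ramos in Dox100, Dox250 and Dox750 and lay below it in Dox500 and Dox1000, and PHF20 overlapped with Ramos in all 5 lines. FKBP1A, the FK506-binding prolyl isomerase, had levels from 12.03 to 12.61 in the resistant lines, against 12.15, 12.33, 12.40 and 12.08 in Ramos, and differed by 0.09, -0.09, 0.14, -0.06 and 0.02 ± 0.10. Its 4 kept probes differed in sign, with values from -0.25 to 0.19, and it was the first measured member of the short arm. DIDO1, a chromatin protein and the last measured member of the long arm, gave -0.28, 0.12, 0.06, -0.21 and 0.13 ± 0.15 on the probe read, but 0.56, 0.99, 0.75, 0.94 and 1.03 on its other kept probe. CPNE1, a calcium-dependent membrane-binding protein, differed by 0.02, 0.33, -0.01, -0.01 and 0.06 ± 0.22, and its 2 probes differed in sign. RBM39 differed by 0.07, -0.03, 0.37, -0.08 and -0.35 ± 0.10. The 6 genes POFUT1, RBL1, PHF20, DIDO1, FKBP1A and CPNE1 were the members called higher in 0 lines.

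Of the other members short of 5 lines, PIGU, of the GPI transamidase, YWHAB, a 14-3-3 protein, and RBM39, an SR-like splicing factor, were called higher in 1 line each. AAR2, an assembly factor of the U5 snRNP, was called higher in 2 lines and MAVS, the mitochondrial antiviral adaptor, in 3. CTNNBL1, TTI1, DHX35, DDX27, ADNP, CSTF1 and ADRM1 were called higher in 4 lines. The missing line was Dox1000 for CTNNBL1, TTI1, DHX35, DDX27 and ADRM1, and Dox100 for ADNP and CSTF1. CSTF1, a cleavage stimulation factor subunit, was detected on 1 of 4 Ramos arrays, and its Dox100 levels of 5.81, 6.76, 4.99 and 5.95 spread widely beside 5.09, 5.77, 5.36 and 5.33 in Ramos.

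Of the members 25 had more than 1 kept probe, and for 9 of them the kept probes differed in sign in at least 1 line, namely FKBP1A, MAVS, DSTN, HM13, POFUT1, CPNE1, STAU1, ADNP and DIDO1. DSTN, an actin-depolymerizing factor, gave 0.47, 0.41, 0.36, 0.24 and 0.45 on the probe read and between -0.21 and -0.07 on another. STAU1, a double-stranded RNA-binding protein, gave 0.46, 0.36, 0.51, 0.43 and 0.29 on the probe read and 0.09, -0.18, -0.33, -0.50 and -0.46 on another. ADNP, a homeobox transcription factor, gave between 0.20 and 0.54 on the probe read and between -0.07 and 0.14 on the other. Over the 88 kept probes of the members, 67 were above Ramos in all 5 lines and 5 below Ramos in all 5. For 40 members every kept probe was above Ramos in every line.

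The calls against Ramos are given by role as a description, and no difference between roles was tested. All 7 members of metabolism were called higher in all 5 lines, with a median over the 5 lines of 0.58. AHCY, which hydrolyses S-adenosylhomocysteine, had log2 levels from 12.92 to 13.33 in the resistant lines, against 12.73, 12.70, 12.79 and 12.77 in Ramos, and differed by 0.34, 0.48, 0.28, 0.27 and 0.29 ± 0.07. IDH3B, a subunit of the mitochondrial isocitrate dehydrogenase, had levels from 11.31 to 11.84 in the resistant lines, against 11.05, 11.22, 11.15 and 11.04 in Ramos, and differed by 0.35, 0.64, 0.50, 0.55 and 0.47 ± 0.08. GSS, glutathione synthetase, differed by 0.50, 0.38, 0.29, 0.22 and 0.59 ± 0.08. The others were ITPA, which clears inosine triphosphate, CRLS1, cardiolipin synthase, ENTPD6, a nucleotidase, and ACSS1, the mitochondrial acetyl-CoA synthetase, with means over the 5 lines of 0.58, 0.68, 0.75 and 0.85.

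Of 13 measured members of the secretory pathway and membranes, 10 were called higher in all 5 lines, again with a median of 0.58. ERGIC3, a cycling protein of the early secretory pathway, had log2 levels from 12.17 to 12.77 in the resistant lines, against 11.72, 11.87, 11.61 and 11.67 in Ramos, a difference of 0.88, 0.59, 0.71, 0.64 and 0.65 ± 0.08. SEC23B, a COPII coat subunit, differed by 0.93, 1.01, 0.61, 0.73 and 0.72 ± 0.07. RPN2, of the oligosaccharyltransferase, differed by 0.56, 0.67, 0.44, 0.66 and 0.56 ± 0.09. Of the signalling, cell cycle and cytoskeleton members 7 of 9 were called higher in all 5 lines (median 0.39). GNAS, the stimulatory G protein alpha subunit, had levels from 13.77 to 14.11 in the resistant lines, against 13.58, 13.52, 13.71 and 13.46 in Ramos, and differed by 0.36, 0.50, 0.45, 0.49 and 0.46 ± 0.07. YWHAB differed by 0.12, 0.01, 0.25, 0.14 and 0.07 ± 0.09 on the probe read. Its dimmer kept probe gave 0.42, 0.86, 0.79, 0.68 and 0.68, so the size of its difference depends on the probe.

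Of 8 members in RNA synthesis, processing and translation, 5 were called higher in all 5 lines (median 0.46), among them XRN2, a nuclear 5′ to 3′ exonuclease, and EIF2S2, the beta subunit of the initiation factor eIF2. Of 6 measured splicing members, 3 were, with a median of 0.39. SNRPB, a core Sm protein of the spliceosomal snRNPs, had levels from 13.29 to 13.64 in the resistant lines, against 12.96, 13.04, 13.16 and 12.98 in Ramos, and differed by 0.35, 0.36, 0.50, 0.37 and 0.32 ± 0.06. SRSF6, a serine- and arginine-rich splicing factor, had levels from 12.96 to 13.41 in the resistant lines, against 12.69, 12.68, 12.74 and 12.73 in Ramos, and differed by 0.45, 0.50, 0.61, 0.49 and 0.39 ± 0.08. The resistant arrays of both genes lay above all Ramos arrays. Of 7 chromatin and transcription members 3 were called higher in all 5 lines (median 0.35), namely ASXL1, a Polycomb-related protein, NCOA6, a nuclear receptor coactivator, and ZMYND8, a chromatin reader. Of 5 proteasome and protein folding members 2 were, MKKS and PFDN4, of which PFDN4 was detected on 0 Ramos arrays.

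Subunits of the same complexes that lie off chromosomes 12 and 20 were set beside the members. Of 82 such partner genes, 9 were called higher in all 5 lines (11%), which is close to the 13.8% of all genes. Their median difference from Ramos was 0.04, 0.07, 0.02, 0.11 and -0.08 from Dox100 to Dox1000. Among Sm proteins beside SNRPB, 0 of 5 were called higher in all 5 lines, and means over the 5 lines ran from -0.39 for SNRPD3 to 0.38 for SNRPN. The U2 snRNP genes beside SNRPB2 ran from -0.45 for SF3A2 to 0.11 for SF3A3. RNA polymerase III genes beside POLR3F ran from -0.14 for POLR3E to 0.14 for POLR3C, and COPII genes beside SEC23B from -0.18 for SEC24D to 0.25 for SAR1A. Of the 20S proteasome 0 of 13 were called higher in all 5 lines, with PSMB4 at -0.21 and PSMA1 at 0.40, and of the 19S proteasome 1 of 14, with PSMC2 at -0.28 and PSMD4 at 0.35. PSMC2 lies on chromosome 7, which was not left out and whose median was -0.03 in Dox100 and between -0.25 and -0.20 in the later lines. The oligosaccharyltransferase differed from the complexes above in its count. Of its 6 partner genes 4 were called higher in all 5 lines, and means ran from 0.04 for OSTC to 0.52 for DAD1.

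The smaller partner sets were mixed. PIGK of the GPI transamidase stood at 0.87 and PIGS at -0.22. IDH3A stood at 0.68 and IDH3G at -0.10. EIF2S1 stood at 0.37 and EIF2S3 at 0.17, and PLRG1 of the PRP19 complex at 0.41 and CDC5L at -0.01. In ESCRT-III, CHMP5 stood at 0.60 and CHMP2A at 0.00, beside a mean of 0.44 for the member CHMP4B. The partners of TTI1, TELO2 and TTI2, stood at -0.28 and -0.32, those of CSTF1, CSTF2 and CSTF3, at -0.15 and -0.09, and those of DPM1, DPM2 and DPM3, at -0.09 and -0.55. The prefoldin partners ran from -0.02 for VBP1 to 0.11 for PFDN2.

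Along the chromosome, the differences were found on both arms and were larger on the short arm among the members. The 16 measured short-arm members had median differences of 0.66, 0.64, 0.60, 0.59 and 0.52 from Dox100 to Dox1000, and the 39 long-arm members 0.39, 0.47, 0.45, 0.43 and 0.39. In all 5 lines 14 of 16 short-arm (87.5%) and 23 of 39 long-arm members (59%) were called higher, beside 13.8% of all genes. These comparisons chose the members. Among the other genes of chromosome 20 the counts were 41 of 75 on the short arm (54.7%) and 75 of 154 on the long arm (48.7%). Averaged over the 5 lines, the long-arm median lay 0.19 lower, at 0.41 against 0.60. The other genes of chromosome 20, which the choice of members did not list, had medians over genes of 0.43 on the long arm (154 genes) and 0.51 on the short arm (75 genes). Their means over genes were 0.46 on the long arm and 0.44 on the short arm, so the order of the arms in these genes depends on the summary used. The members' means over genes were 0.40 on the long arm and 0.64 on the short arm. No test was made of the gap, since genes of 1 chromosome are not independent replicates.

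Blocks of 10 consecutive members were taken in the order of the member list. The median of the mean over 5 lines was 0.57 from FKBP1A to RRBP1 and 0.69 from DSTN to COMMD7 across the centromere. It was 0.36 from CHMP4B to RBM39, 0.44 from AAR2 to SRSF6 and 0.42 from YWHAB to PFDN4. The last 5 members, RAE1 to DIDO1, had 0.38. In RefSeq order DSTN lies before RRBP1, so RRBP1, the member farthest above Ramos, would fall in the next block. Block medians in that order were not computed. The spread between members was larger than the spread of a member between lines. The SD of the mean over 5 lines was 0.33 over the 55 members, and the median SD of a member over the 5 lines was 0.12. The mean lay between 0.3 and 0.7 for 33 members. For 45 members the difference from Ramos was positive in all 5 lines.

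**Figure D3:**
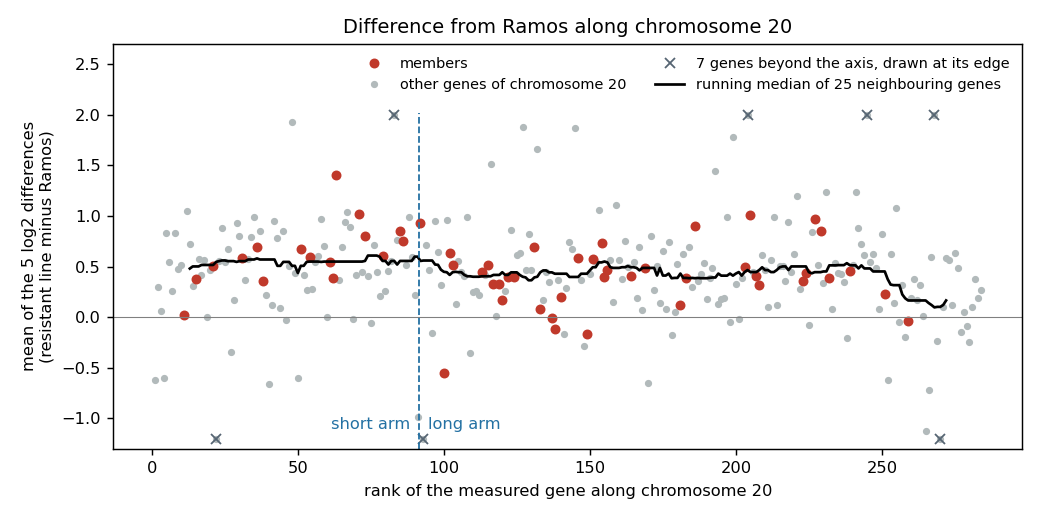
Mean of the 5 log2 differences from Ramos (vertical axis) for the measured genes of chromosome 20 in gene order (horizontal axis, rank along the chromosome), with members as large points, other genes as small points and the running median of 25 genes as a line. The running median stays between 0.10 and 0.61, the dashed line marks the boundary of the arms, and 7 other genes beyond the axis are drawn as crosses at its edge.

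A running median over 25 neighbouring genes of the chromosome was above 0 in all 260 windows. It was highest, at 0.61, from DSTN to ENTPD6 on the short arm and lowest, at 0.10, from MRGBP to TCEA2 near the end of the long arm. DIDO1 lies in that window and ADRM1 just before it. The same measure on chromosome 12 was above 0 in all 508 windows, between 0.10 and 0.64, and on chromosome 7 in 36 of 447 windows. Chromosomes 12 and 20 differed from Ramos by similar amounts. The median of the 532 genes of chromosome 12 was 0.42, 0.44, 0.44, 0.45 and 0.43 from Dox100 to Dox1000, and that of the 284 genes of chromosome 20 was 0.47, 0.47, 0.50, 0.44 and 0.41. Ranked among 23 chromosomes, chromosome 20 was the highest in Dox100, Dox250 and Dox500 and number 2, after chromosome 12, in Dox750 and Dox1000. No other chromosome had a median above 0.06 in any line. Chromosome 20 was chosen because it stood above the rest in these comparisons, so its rank and its windows are descriptions only.

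**Figure D4:**
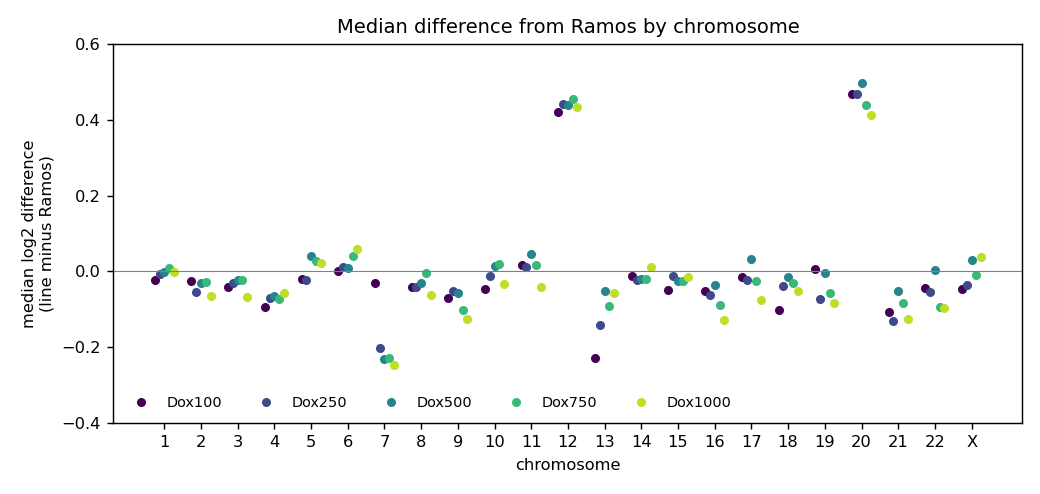
Median log2 difference from Ramos of the measured genes of each of 23 chromosomes (horizontal axis) in the 5 resistant lines (vertical axis, log2; 1 point per line). Chromosomes 12 and 20 lie between 0.41 and 0.50 in every line, and no other chromosome passes 0.06.

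The 229 genes of chromosome 20 that are not members had nearly the same median as the members, at 0.47, 0.45, 0.48, 0.43 and 0.41 from Dox100 to Dox1000. Of these genes 116 were called higher in all 5 lines (50.7%), as were 258 of 532 genes of chromosome 12 (48.5%) and 1166 of 9249 genes off chromosome 20 (12.6%). The members' own share was 67.3%, and the comparisons behind it chose the members. The same comparisons chose the chromosome, so the medians and shares of its other genes are descriptions too.

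Differences between resistant lines do not use the level in Ramos. The Ramos arrays did enter the shared estimate of the spread behind the adjusted p-values of these differences. The same resistant-line arrays took part in choosing the members, and a decline with dose was already known from them, so the adjusted p-values below describe these arrays and are not independent support for a decline. In Dox1000, 17 of the 55 members were lower than in Dox100 (30.9%), beside 20.5% of all genes, and 3 were higher (5.45%), beside 17.3% of all genes. The members' median difference between these lines was -0.05, beside -0.02 over all genes. Among the other genes of chromosome 20, 48 of 229 were lower (21.0%) and 32 higher (14.0%), and among the partner genes 24 of 82 were lower (29.3%) and 10 higher. For 12 members all Dox1000 arrays lay below all Dox100 arrays (17.4% of all genes). Under median scaling in place of quantile normalization the split was 21 lower and 0 higher. That scaling also put the median difference of all genes from Ramos at -0.03 in Dox100 and -0.13 in Dox1000. Shares of all genes called under it are not given, and nothing particular to the members is read from that split. With only the 8 arrays compared the split was 8 lower and 1 higher, and 9 members were lower by at least 0.3 in the main fit.

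MAVS fell the most. Its log2 level was 7.99, 7.93, 7.91 and 7.85 in Dox1000, against 8.83, 8.67, 8.68 and 8.42 in Dox100. All Dox1000 arrays lay below all Dox100 arrays and within the Ramos range of 7.67 to 8.03. The difference was -0.73 ± 0.10 (limma, adjusted p = 1.19e-05), and the dimmer probe gave -0.57. TTI1, a cofactor for the stability of PI3K-related kinases, had 7.51, 7.75, 7.90 and 7.48 in Dox1000, against 8.62, 7.999, 8.34 and 8.16 in Dox100. The groups did not overlap, and it fell by 0.62 ± 0.14 (limma, adjusted p = 0.00124). AAR2 had 9.21, 9.10, 9.23 and 9.001 in Dox1000, against 9.76, 9.76, 9.94 and 9.54 in Dox100. Its groups did not overlap either, and the difference was -0.62 ± 0.09 (limma, adjusted p = 1.26e-05).

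RBM39 had log2 levels of 8.84, 8.94, 9.11 and 9.01 in Dox1000, against 9.40, 9.40, 9.48 and 9.30 in Dox100, a difference of -0.42 ± 0.10 (limma, adjusted p = 0.00167). Its Dox500 levels of 9.47, 9.59, 9.96 and 9.73 were the highest of any line on average, so its course was not a steady one. DHX35, an RNA helicase found with the spliceosome, had 8.08, 8.28, 8.21 and 8.11 in Dox1000, against 8.51, 8.31, 8.75 and 8.73 in Dox100, a difference of -0.40 ± 0.11 (limma, adjusted p = 0.00554). ADRM1, the ubiquitin receptor of the 19S proteasome, had 11.70, 11.74, 11.53 and 11.77 in Dox1000, against 12.12, 11.9996, 11.98 and 12.13 in Dox100, a difference of -0.37 ± 0.07 (limma, adjusted p = 0.000163). For these 3 genes, too, the arrays of Dox1000 lay below those of Dox100 without overlap.

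**Figure D5:**
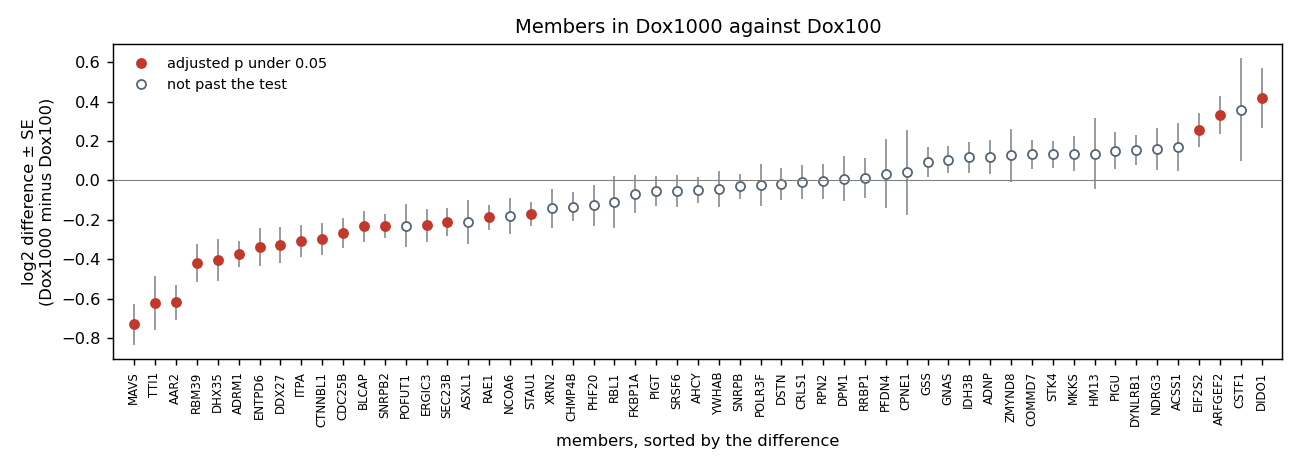
Fitted log2 difference of Dox1000 minus Dox100 with its SE as a bar (vertical axis) for the 55 measured members sorted by the difference (horizontal axis), with members past an adjusted p under 0.05 as filled points. The 17 members that fell lie between -0.73 (MAVS) and -0.17 (STAU1), and the 3 that rose are ARFGEF2, EIF2S2 and DIDO1.

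The 17 that fell comprised 4 of 6 splicing members (RBM39, AAR2, CTNNBL1 and SNRPB2), 4 of 8 members of RNA synthesis, processing and translation (DHX35, DDX27, RAE1 and STAU1), 2 of 5 of proteasome and protein folding (TTI1 and ADRM1), and 3 of 9 of signalling, cell cycle and cytoskeleton (MAVS, CDC25B and BLCAP). Of metabolism 2 of 7 fell (ENTPD6 and ITPA), of secretory pathway and membranes 2 of 13 (SEC23B and ERGIC3), and of chromatin and transcription 0 of 7. The median difference of Dox1000 from Ramos was 0.22 for splicing, 0.11 for proteasome and protein folding, 0.59 for metabolism and 0.56 for the secretory pathway. The Dox100 medians from Ramos were 0.43, 0.44, 0.63 and 0.56 for the same 4 groups. Medians of the other role groups are not given here. Of all genes 20.5% were lower in Dox1000 than in Dox100, and no difference between roles or arms in the falls was tested. By position, 6 of 16 short-arm and 11 of 39 long-arm members fell.

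Of the 17 falls, 12 were kept whichever of the 24 arrays was left out, and 5 were not. The call for SEC23B was lost without Dox100 replicate 2 (-0.17, adjusted p = 0.0872), that for ERGIC3 without Dox1000 replicate 3 (-0.16, adjusted p = 0.148), and that for BLCAP, a small membrane protein, without Dox100 replicate 3 (-0.21, adjusted p = 0.0806). STAU1 was lost without Dox1000 replicate 2 (-0.16, adjusted p = 0.0876) and RAE1, an mRNA export factor, without Dox1000 replicate 4 (-0.16, adjusted p = 0.0863). These are the arrays with the highest adjusted p for each gene, and leaving out any of between 3 and 7 arrays, 1 at a time, ended each call. RAE1 also differed by probe, at -0.19 on the probe read and 0.33 on its other kept probe.

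ARFGEF2 rose, with log2 levels of 7.64, 7.81, 7.72 and 8.02 in Dox1000, against 7.33, 7.53, 7.56 and 7.44 in Dox100. The groups did not overlap, and the difference was 0.33 ± 0.10 (limma, adjusted p = 0.00946), kept in all 24 leave-outs. EIF2S2 had 9.31, 9.15, 9.28 and 9.13 in Dox1000, against 8.85, 9.13, 8.82 and 9.05 in Dox100, a difference of 0.25 ± 0.09 (limma, adjusted p = 0.0266). The groups lay next to each other with almost no gap, and without Dox100 replicate 3 the adjusted p was 0.0945, the highest of 4 arrays that each ended the call when left out. DIDO1 had 9.22, 9.29, 9.29 and 8.94 in Dox1000, against 8.70, 8.40, 9.07 and 8.90 in Dox100, with overlap, and differed by 0.42 ± 0.15 (limma, adjusted p = 0.0348). Without Dox100 replicate 2 its adjusted p was 0.139, the highest of 5 such arrays.

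Step by step, the share of members called lower or higher was 12.7% in Dox250 against Dox100 (13.5% of all genes), 7.3% in Dox500 against Dox250 (14.7%), 7.3% in Dox750 against Dox500 (8.0%) and 20% in Dox1000 against Dox750 (23.7%). None of these shares exceeded that of all genes, and nothing particular to the members is read from them. They pool falls and rises and so hide direction. At the last step 8 of the 55 members fell and 3 rose, beside 11.7% and 12.1% of all genes. From Dox100 to Dox250, 4 members fell (8.25% of all genes fell) and 3 rose (5.21%). MAVS fell by 0.47 ± 0.10 (limma, adjusted p = 0.00426), and EIF2S2 differed by 0.35 ± 0.09 (adjusted p = 0.0101). These 2 calls were kept with each array left out. The falls of AAR2, ERGIC3 and CDC25B, a phosphatase that activates cyclin-dependent kinases, and the rises of IDH3B and HM13 were not. The call for HM13 was ended by leaving out any of 16 of the 24 arrays and that for CDC25B by any of 12, with adjusted p up to 0.186 (without Dox100 replicate 3) and 0.17 (without Dox100 replicate 1). Those for AAR2, IDH3B and ERGIC3 were ended by 4, 4 and 3 arrays, with adjusted p up to 0.0907 (without Dox100 replicate 3), 0.061 (without Dox100 replicate 4) and 0.0897 (without Dox100 replicate 1). Under median scaling 6 members fell and 0 rose at this step, while the median of all genes from Ramos was -0.03 in Dox100 and -0.13 in Dox250.

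From Dox250 to Dox500, 2 members fell (6.81% of all genes) and 2 rose (7.86%). SEC23B had log2 levels of 10.52, 10.51, 10.57 and 10.55 in Dox500, against 10.93, 10.95, 10.95 and 10.95 in Dox250, and differed by -0.40 ± 0.07 (limma, adjusted p = 0.000531). The 4 arrays of each line lay close together and far from the other line. RBM39 rose by 0.40 ± 0.10 and BLCAP by 0.35 ± 0.08. The fall of HM13 was lost without any of 4 arrays (adjusted p = 0.0979 without Dox500 replicate 3). From Dox500 to Dox750, 3 members fell (4.03% of all genes) and 1 rose (3.98%). RBM39 fell by 0.45 ± 0.10 and CDC25B by 0.34 ± 0.08, and both calls were kept with each array left out. The fall of MAVS had an adjusted p of 0.0482 in limma and was lost without any of 18 of the 24 arrays (adjusted p up to 0.163, without Dox500 replicate 3). The rise of ARFGEF2 was lost without either of 2 arrays (adjusted p up to 0.0602, without Dox500 replicate 4).

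From Dox750 to Dox1000, 8 members fell (11.7% of all genes) and 3 rose (12.1%). DDX27, a nucleolar RNA helicase, had log2 levels of 8.86, 8.84, 9.07 and 8.85 in Dox1000, against 9.54, 9.40, 9.57 and 9.36 in Dox750. It fell by 0.56 ± 0.09 (limma, adjusted p = 0.000133), with no overlap, and its Dox1000 arrays lay around the Ramos range of 8.87 to 9.05. ADRM1, DHX35, AAR2, SNRPB2 and CTNNBL1, a spliceosome-associated protein, fell as well, by 0.35 ± 0.07, 0.43 ± 0.11, 0.34 ± 0.09, 0.34 ± 0.06 and 0.31 ± 0.08. These 6 falls were kept with each array left out. Those of RBM39 and RAE1 were not. The call for RBM39 (limma, adjusted p = 0.0495) was lost without any of 18 of the 24 arrays, with an adjusted p up to 0.145 (without Dox1000 replicate 1), and that for RAE1 without either of 2 arrays, up to 0.0563 (without Dox1000 replicate 4).

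ACSS1, a member on the short arm, rose at that step. Its log2 level was 10.32, 10.22, 10.37 and 9.67 in Dox1000, against 9.18, 9.57, 9.50 and 9.45 in Dox750. Replicate 4 of Dox1000 stood well below the other 3 but above all Dox750 arrays, and the difference was 0.71 ± 0.12 (limma, adjusted p = 0.000195). Relative to Ramos, ACSS1 differed by 1.07, 0.86, 0.59, 0.52 and 1.23 from Dox100 to Dox1000, so its lowest line was Dox750. GSS also rose, by 0.37 ± 0.08 (limma, adjusted p = 0.00138), and both calls were kept with each array left out. The rise of STK4, a Hippo pathway kinase, was lost without any of 3 arrays (adjusted p up to 0.0888, without Dox1000 replicate 3). Among the resistant lines, 22 members had their lowest mean in Dox1000 (40.0%), beside 33.6% of the other genes of chromosome 20 and 29.5% of all genes. Their highest mean lay in Dox100 for 11 members (20%), beside 27.5% of the other genes of chromosome 20 and 23.6% of all genes, so this second count was below the share of all genes. No member had a lower mean at every one of the steps (0 of 55).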

How the data were processed

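RNA of 24 cultures, 4 of each of 6 lines, was hybridised to Illumina bead arrays. The starting table holds unnormalized bead intensity for every probe, per the file headers, with no background subtraction. Detection p-values stand next to each signal, per the file headers. A second table, deposited by the authors, holds log2 values that matched quantile-normalized signals without background subtraction (highest absolute difference 0.00505). Per the submitters' processing notes, the tools included lumi. The array's genome build is not given in the sources used here.

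Intensities were corrected with limma nec (normexp, offset 16), quantile-normalized and put on a log2 scale. Probes were kept if at least 3 of 4 arrays in some line had a detection p under 0.01, which left 15765 of 47323 (33.3%). In the platform annotation 30113 probes carried 1 symbol, 8 several and 17202 none. Of those with 1 symbol, 30074 were matched to RefSeq by Entrez identifier and took the RefSeq symbol, whether or not it differed. The brightest kept probe stood for a gene. Gene order and promoters came from RefSeq (GRCh38.p14). The arms were split at the start of HM13.

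A mean per line was fitted over all 24 arrays with limma 3.58.1 in R 4.3.3 (18 residual degrees of freedom), with Benjamini-Hochberg adjustment over the 15765 probes. The procedure was tested on simulated data. The members, lists and tests were chosen with earlier results of these data known. The rule for named genes took the 6 highest and 6 lowest means over the 5 lines. It took the 5 largest falls and 5 least falls or rises in Dox1000 against Dox100. It also took the ends of each arm in the order of the member list and the members brightest in Ramos per role. Unmeasured members, those not higher in each of 5 lines and those whose probes differ in sign were named too. Other genes were named after their values were seen. Alternatives varied background, scaling, starting values, filter, probe rule, centring, thresholds, variance model, arrays used and a replicate block, and their effect is given at the end. The number of arrays limits the precision. One B cell marker of the list is not reported here.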

Additional observations from a re-analysis of the deposited data

Results flagged for a closer look

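Of 234 groups of 4 arrays tested for an array far from the other 3, 8 had one (3.42%), and chance gives about 1 in 20. The median of the short-arm members on Dox500 replicate 1 was high at 0.68, beside 0.5858 to 0.594 on the other 3 arrays. On the same array IDH3B was high at a log2 level of 11.82, beside 11.54 to 11.57. FKBP1A was low on Dox1000 replicate 4 at 12.03, beside 12.33 to 12.35. DIDO1 was low on Dox750 replicate 1 at 8.546, beside 8.916 to 8.962. PIGU was low on Dox100 replicate 2 at 8.529, beside 8.823 to 8.883, and SRSF6 on Dox250 replicate 2 at 12.96, beside 13.27 to 13.33. Dox1000 replicate 3 held both DDX27, high at 9.074 beside 8.837 to 8.856, and ERGIC3, low at 12.17 beside 12.42 to 12.47. Leaving out that array ended the call for ERGIC3 in Dox1000 against Dox100 and not that for DDX27.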

How the results depend on the processing

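The count of members above Ramos in all 5 lines was 37, and 34 to 39 with an array left out. It was 25 under median scaling, 29 with a log2 floor of 0.3, 31 at an adjusted p under 0.01, and 33 with no filter or with only the 8 arrays compared. Median scaling also lowered the counts in single lines, to 41 in Dox100, 40 in Dox250, 36 in Dox500, 37 in Dox750 and 31 in Dox1000. The count was 34 among members whose probes agree in sign, an alternative chosen after seeing the data. The 17 falls of Dox1000 against Dox100 became 8 with only the 8 arrays compared, 9 with the floor, and 13 to 17 with an array left out. The 4 falls of Dox250 against Dox100 became 1 with no filter, with only the 8 arrays or at an adjusted p under 0.01, 2 with the floor, and 1 to 6 with an array left out. The 2 falls of Dox500 against Dox250 became 1 with no filter or at an adjusted p under 0.01, 4 with probes detected on all 24 arrays, and 1 to 3 with an array left out. The 3 falls of Dox750 against Dox500 became 5 with no background correction, the authors' deposited log2 values, probes detected on all 24 arrays or an intensity trend, and 1 under median scaling. Median scaling put the median difference of all genes from Ramos at -0.03, -0.13, -0.14, -0.11 and -0.13 from Dox100 to Dox1000. It put the members' medians at 0.40 in Dox250, 0.37 in Dox500, 0.38 in Dox750 and 0.30 in Dox1000. The members' medians from Dox100 to Dox1000 were 0.38, 0.44, 0.43, 0.39 and 0.34 with no background correction and also with the authors' deposited log2 values. The mean over probes gave 0.42 in Dox100, and centring on genes off chromosomes 7, 12 and 20 gave 0.54 in Dox250. With an array left out the medians ran from 0.44 to 0.48 in Dox100, 0.50 to 0.54 in Dox500 and 0.41 to 0.46 in Dox1000. The gap between the arms kept its sign, at -0.22 to -0.17 with an array left out. Values near 0 changed sign. The mean over 5 lines of FKBP1A was -0.083 under median scaling, -0.0028 as a mean over probes and -0.034 to 0.074 with an array left out. That of CPNE1 was -0.022 under median scaling and -0.032 to 0.17 with an array left out, and that of YWHAB was -0.0044 under median scaling. RBM39 was 0.020 with centring and -0.061 to 0.033 with an array left out. As a mean over probes POFUT1 was 0.14, DIDO1 0.41 (-0.10 to 0.10 with an array left out), and RAE1 0.073 in Dox1000 against Dox100 (adjusted p = 0.629). Same-numbered arrays did not vary together (60 pairs, r from -0.24 to 0.18), so no pairing by number was seen. Low correlation cannot show that same-numbered arrays shared no handling. The replicate block left 17 falls of Dox1000 against Dox100 and 37 members above Ramos in all 5 lines. The causes of these shifts were not tested.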
